A study of Mus musculus with 12 samples.

Results

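Cells of an infarcted heart meet large amounts of heme and iron, because red blood cells leak and die in the wound and macrophages clear them. The values of 10 genes that take up, break down, store and release heme and iron, out of 17952 gene identifiers in the tables, were read in 12 bulk RNA-seq libraries from sorted mouse heart cells. The genes were chosen by symbol: Cd163, Slc48a1, Hmox1, Blvrb, Fth1, Ftl1, Slc40a1, Tfrc, Slc11a1 and Nqo1. All 10 were listed in both sorted populations, and all 10 passed the filter on low counts in both.

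All 12 libraries came from mice of the genotype p16-2A-CreER;R26-mTmG with a myocardial infarction (MI). The first allele expresses CreER, a Cre that needs tamoxifen to act, under control of p16. The second is a reporter that turns for good from red to green in a cell, and in its daughters, once Cre has been active. The mice received tamoxifen orally on day 5 and the infarcted tissue was dissected on day 7. Non-cardiomyocytes were stained for PDGFRα, which marks fibroblasts, or for F4/80, which is the product of Adgre1 and marks macrophages, and were separated by green fluorescence. The 4 groups of 3 libraries each are P16lo PDGFRa, P16hi PDGFRa, P16lo F480 and P16hi F480, where P16hi means high and P16lo low green fluorescence. Green fluorescence records that the p16 locus was used when tamoxifen was present, not that it was in use at harvest. The labels give no age or sex and do not tie libraries to separate animals, so that each p-value covers the spread between libraries alone and that spread may be technical. No uninjured heart was analysed here.

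Heme reaches macrophages bound to carriers or inside engulfed red cells. Heme oxygenase opens the heme ring and sets free iron, carbon monoxide and biliverdin, and the iron is then stored in ferritin or leaves through the exporter ferroportin. Ferritin, ferroportin and the transferrin receptor are also controlled after transcription, by iron regulatory proteins that bind a short RNA hairpin, the iron responsive element, when iron is scarce. A hairpin in the 5′ UTR then blocks translation of the ferritins and ferroportin, and hairpins after the stop codon keep the transferrin receptor RNA from decay, so in this pathway a level of RNA need not be a level of protein.

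The hairpins of the members are shown because the RNA values of the ferritins and Slc40a1 given below do not measure the block of translation. The RNA value of Tfrc includes any effect on decay but does not separate it from transcription. A search of the GENCODE M21 transcripts (build GRCm38) for a C, 5 bases, the loop CAGTGN with N other than G, and 5 bases that pair with the first 5 found the element in 222 of 21877 coding genes (1.01%), among them 4 of the 10 members, Fth1, Ftl1, Slc40a1 and Tfrc. G-U pairs were allowed. The capitals mark the loop letters CAGTG, and each sequence is 29 bases long, 5′ to 3′ on the gene's strand.
Fth1, 5′ UTR, chr19:9982732-9982760, plus strand: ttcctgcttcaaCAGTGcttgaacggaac
Ftl1, 5′ UTR, chr7:45459779-45459807, minus strand: gtcttgcttcaaCAGTGtttgaacggaac
Slc40a1, 5′ UTR, chr1:45925465-45925493, minus strand: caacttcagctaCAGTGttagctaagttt
Tfrc, 3′ UTR, chr16:32631219-32631247, plus strand: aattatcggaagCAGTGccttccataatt
Tfrc, 3′ UTR, chr16:32631598-32631626, plus strand: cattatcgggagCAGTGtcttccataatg
Tfrc, 3′ UTR, chr16:32631663-32631691, plus strand: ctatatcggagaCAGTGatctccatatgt
Tfrc, 3′ UTR, chr16:32631710-32631738, plus strand: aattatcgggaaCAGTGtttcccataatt
The Fth1 and Ftl1 elements had 26 of 29 bases in common. The search found 1 element in each ferritin RNA, 1 in a Slc40a1 transcript and 4 in the Tfrc RNA.

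The promoters of both ferritin genes, the most abundant members, are shown next. Whether their letters bear on RNA levels was not tested. They are 250 bases each, up to the base before the start site, from RefSeq (GRCm38.p6), with the letters CCAAT or their complement ATTGG in capitals.
Fth1, chr19:9982396-9982645, plus strand: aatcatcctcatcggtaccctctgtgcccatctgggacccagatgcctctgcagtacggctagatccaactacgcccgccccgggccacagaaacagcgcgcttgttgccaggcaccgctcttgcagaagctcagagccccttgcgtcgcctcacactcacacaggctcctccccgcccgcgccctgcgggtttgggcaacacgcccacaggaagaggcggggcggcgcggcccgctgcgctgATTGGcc
Ftl1, chr7:45459887-45460136, minus strand: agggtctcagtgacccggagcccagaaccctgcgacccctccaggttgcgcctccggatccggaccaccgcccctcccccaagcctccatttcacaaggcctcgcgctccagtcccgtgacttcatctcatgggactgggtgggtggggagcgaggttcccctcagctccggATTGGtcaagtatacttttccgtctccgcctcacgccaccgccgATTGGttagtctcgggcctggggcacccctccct
Fth1 held 1 match, whose first base lay at -7 from the start site, and Ftl1 held 2, at -78 and -34. RefSeq also gives an earlier Fth1 start, whose window (chr19:9980350-9980599) held no CCAAT. RefSeq windows were matched for 7 of the 10 members, 10 windows in all, and in each the 250 bases before the start site were searched. On both strands, CCAAT was in 33.8% of 32851 such stretches of all genes, GGGCGG in 32.7%, TATAAA in 12.4%, and TGACNNNGC, the core of the antioxidant response element, in 10.2%. No motif overlap was removed. Besides the ferritins, CCAAT was in the window of Cd163 and in a window of Tfrc. GGGCGG was in windows of Blvrb, Ftl1, Nqo1, Tfrc and Fth1, and TATAAA in those of Nqo1 and of the earlier Fth1 start. None of the 10 member windows held TGACNNNGC. These matches describe letters and no binding was measured.

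The libraries were uneven, which touches every value below. Total counts ran from 3.16 to 18.9 M (M, 1000000 counts) in PDGFRa libraries and from 15.5 to 27.9 M in F480 libraries. Cdkn2a, the p16 gene, had 2 to 5 counts in P16lo and 5 to 26 in P16hi libraries, and in CPM its P16hi libraries lay above its P16lo libraries in both populations. CPM are counts per 1000000 of library size, scaled by TMM within a population. Hemoglobin genes took 44.8% of the counts of P16lo PDGFRa library 3 and 18.7% of those of library 2, against 0.244% to 4.62% in the other PDGFRa libraries and at most 0.363% in F480 libraries. The PDGFRa sort went with its markers unevenly. Pdgfra was at 4.65, 6.76 and 165 CPM in P16lo and 20.2, 8.61 and 46.5 in P16hi PDGFRa libraries, and Adgre1 at 772, 52.0 and 28.7 in P16lo and 255, 221 and 135 in P16hi. The summed CPM of 10 fibroblast markers was 1097, 3483 and 28999 in P16lo and 5052, 2463 and 9159 in P16hi PDGFRa libraries. That of 12 macrophage markers was 28415, 6468 and 1817 in P16lo and 17014, 12860 and 5862 in P16hi. The fibroblast sum was the higher one only in library 3 of each group, so PDGFRa cells below names the sort and not a pure cell type. In P16lo F480 library 3 Adgre1 was at 33.5 CPM, against 226 to 1801 in the other F480 libraries. The macrophage sum, with none of its markers at 0 in any library, ran from 1817 to 28415 CPM in the PDGFRa libraries and from 2672 to 53126 in the F480 libraries. P16hi F480 library 3 alone held endothelial markers at 10114 CPM and cardiomyocyte markers at 936, against 40.5 to 150 and 3.24 to 25.3 in the other F480 libraries. In bulk samples fewer cells of a type and less RNA per cell cannot be told apart.

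Both ferritin genes were by far the most abundant members. Per transcript length (TPM), Ftl1 had a median of 20155 and Fth1 of 15801 over the 6 F480 libraries, and 9249 and 5254 over the 6 PDGFRa libraries. The lowest Fth1 library lay above the highest library of the third gene in both populations. In F480 cells Hmox1 (median 371 TPM), Slc11a1 (215), Blvrb (156) and Slc48a1 (52.4) followed, and the ranges of these 4 neighbours overlapped. Every F480 library had Slc48a1 above the highest library of Cd163 (median 4.28), which was followed by Tfrc (3.11), Slc40a1 (1.97) and Nqo1 (0.664) with overlapping ranges. In PDGFRa cells the order was Blvrb (164), Hmox1 (94.0), Slc48a1 (57.6), Slc11a1 (53.0), Cd163 (5.05), Nqo1 (3.22), Slc40a1 (2.67) and Tfrc (1.11), and each of these overlapped the next.

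**Figure D1:**
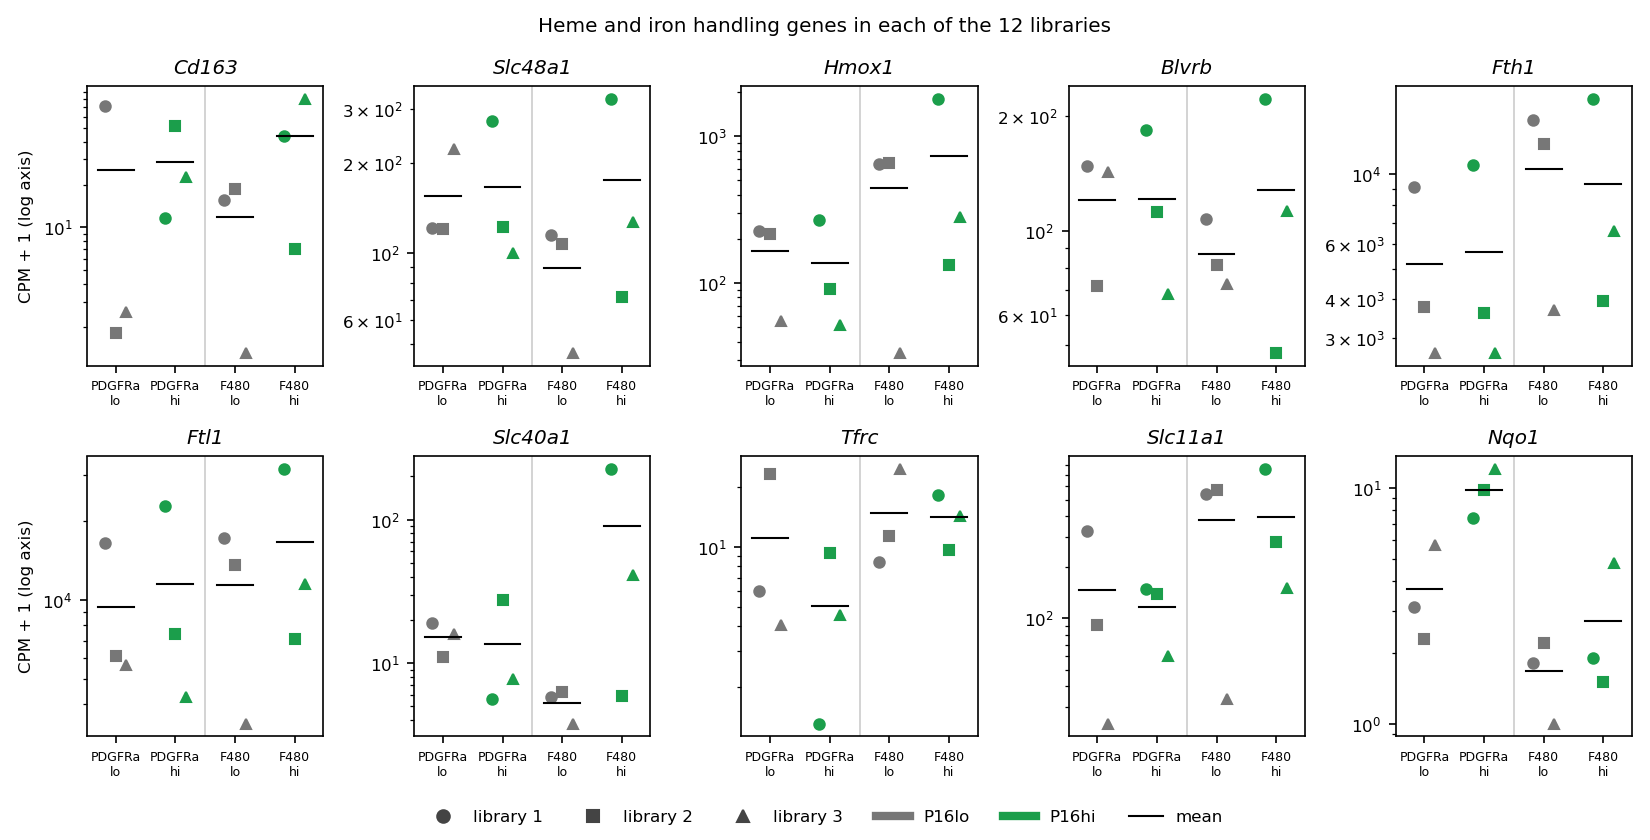
Level of each of the 10 genes in each of the 12 libraries, as CPM plus 1 on a log axis, with libraries grouped by sort (lo, P16lo; hi, P16hi) and the group mean as a line. CPM were scaled within each population. Nqo1 in PDGFRa cells is the one case in which the P16hi libraries all lie above the P16lo libraries.

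No member passed the test in either population. With edgeR's quasi-likelihood test and Benjamini-Hochberg adjustment over all genes, 0 of 10 members were called in PDGFRa cells, where 0 of 13262 genes tested (0%) were called, and 0 of 10 in F480 cells, where 0 of 12490 (0%) were. At an unadjusted p under 0.05, edgeR gave 859 genes in PDGFRa cells (6.48%) with 0 of the 10 members among them, and 280 genes in F480 cells (2.24%) with 1 member, Slc40a1. DESeq2 called 304 genes (2.29%) in PDGFRa and 3 (0.024%) in F480 cells, again with no member. Adjusted p-values of the members in edgeR ran from 0.802 to 0.998 in PDGFRa cells and were 0.999 for every member in F480 cells. The median log2 fold change of P16hi over P16lo was 0.65 over the members in F480 cells, where 8 of 10 were above 0, beside a median of 0.00 over all genes tested. In PDGFRa cells it was 0.05, with 6 of 10 above 0, beside -0.17 over all genes. The groups did not overlap for 1 of 10 members in PDGFRa cells, where 14.8% of all genes tested were so separated (7.92% with P16hi higher), and for 0 of 10 in F480 cells, where 6.85% were. In exact two-sided permutation tests, which cannot give a p below 0.1 with 3 against 3 libraries, every member had an adjusted p of 1.

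**Figure D2:**
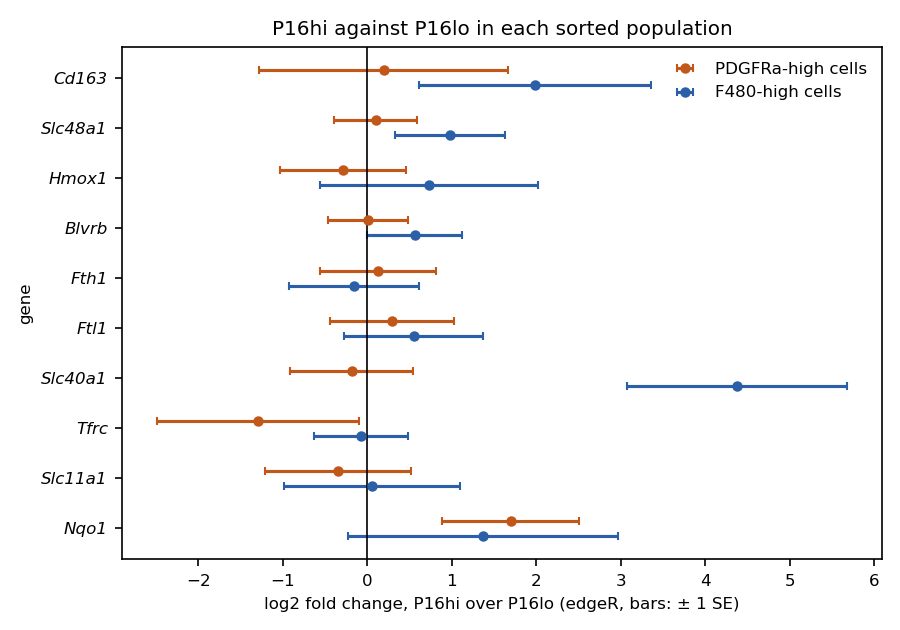
Log2 fold change of P16hi over P16lo for each gene, with bars of 1 standard error from edgeR, for PDGFRa-high cells and F480-high cells (3 libraries a group). In F480 cells 8 of 10 points lie above 0, with Slc40a1 at 4.38, and no gene passed the test.

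The F480 table came as a pair of column blocks. One held P16hi libraries 2 and 3 beside P16lo library 3, and the other held P16hi library 1 beside P16lo libraries 1 and 2. What the blocks mean is not stated. The PDGFRa table also came as a pair of blocks, but no block covariate or within-block value was computed for it. Separations of the PDGFRa groups were therefore not read within blocks. Within each block the P16hi mean of log2(CPM + 1) was above the P16lo mean for 8 of 10 members (80.0%), beside 29.4% of all genes tested, and below it in both blocks for 0 of 10, beside 29.7%. The 8 were Hmox1, Cd163, Slc40a1, Fth1, Ftl1, Slc11a1, Blvrb and Slc48a1, while Tfrc and Nqo1 had opposite signs in the blocks. The macrophage marker sum was likewise higher in P16hi in both blocks (2672 CPM against 25925 and 15260 in the first, 32714 and 29947 against 53126 in the second), and its part in these differences was not tested. P16lo library 3, alone for P16lo in the first block, was the library low in Adgre1. Per 1000 CPM of macrophage markers it lay above both P16hi libraries of that block for Fth1 (1381 against 152 and 431). The same held for Ftl1 (1260 against 273 and 754), Blvrb, Slc48a1 and Slc11a1. For Hmox1 and Slc40a1 it lay between them, and for Cd163 below both. A fit with the block as a covariate called 0 of 10 members, with a lowest adjusted p of 0.687 from edgeR. Its log2 fold changes were 2.07 ± 0.49 for Hmox1 (0.73 without the covariate), 4.04 ± 2.15 for Cd163 (1.98), 1.25 ± 0.35 for Ftl1 (0.55), 1.58 ± 0.68 for Slc11a1 (0.05), 2.92 ± 3.13 for Nqo1 (1.37) and 0.43 ± 0.33 for Fth1 (-0.16). Slc40a1 (4.26), Slc48a1 (1.33), Blvrb (0.70) and Tfrc (-0.07) moved less. The members were chosen with earlier results of these data known, so this count is a description.

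Cd163 and Slc48a1 bring hemoglobin and heme into the cell. Cd163 (chr6:124304636-124330529) is the macrophage receptor for hemoglobin bound to haptoglobin. In F480 cells its level was 14.6, 17.5 and 0.31 CPM in P16lo libraries 1 to 3 and 42.9, 6.04 and 79.2 in P16hi libraries 1 to 3. P16hi libraries 1 and 3 lay above every P16lo library, and P16hi library 2 lay below P16lo libraries 1 and 2. The log2 fold change was 1.98 ± 1.37 (SE, n = 3 a group; edgeR adjusted p = 0.999), and 4.19 and 1.37 within the blocks on the log2(CPM + 1) scale. It was 1.18 without P16hi library 3. In PDGFRa cells the values were 70.5, 0.81 and 1.53 CPM in P16lo and 10.7, 51.0 and 21.5 in P16hi. All P16hi libraries lay above P16lo libraries 2 and 3, and P16lo library 1, the library with the most macrophage marker RNA in that population, lay above them all. The log2 fold change was 0.19 ± 1.48 (edgeR adjusted p = 0.975) and became 4.57 without P16lo library 1 (edgeR adjusted p = 0.217).

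Slc48a1 (chr15:97784365-97792692) encodes HRG1, which carries heme out of the phagolysosome. Its F480 values were 114, 106 and 45.7 CPM in P16lo and 324, 70.4 and 126 in P16hi, a log2 fold change of 0.97 ± 0.65 (edgeR adjusted p = 0.999) that was 0.14 without P16hi library 1. P16hi libraries 1 and 3 were the 2 highest and the groups overlapped through P16hi library 2. In PDGFRa cells it was among the steadiest members, at 121, 120 and 221 CPM in P16lo and 274, 121 and 99.4 in P16hi, with 2.75-fold between the lowest and the highest library and a log2 fold change of 0.10 ± 0.49 (edgeR adjusted p = 0.963).

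Hmox1 breaks heme down, and Blvrb encodes a reductase that does not act on heme itself. Hmox1 (chr8:75093618-75100593) encodes heme oxygenase 1, the inducible enzyme that opens the ring. In F480 cells it was at 642, 659 and 32.4 CPM in P16lo and 1801, 133 and 282 in P16hi. P16hi library 1 was the highest of all, and P16lo library 3, the library low in Adgre1, was the lowest, and the groups overlapped. The log2 fold change of 0.73 ± 1.29 (edgeR adjusted p = 0.999) became -1.11 without P16hi library 1. In PDGFRa cells Hmox1 was at 226, 216 and 54.0 CPM in P16lo and 267, 90.5 and 50.7 in P16hi, a log2 fold change of -0.28 ± 0.74 (edgeR adjusted p = 0.933). Library 3 was the lowest of each group there.

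Blvrb (chr7:27447978-27465981) encodes biliverdin reductase B, which reduces flavins and some forms of biliverdin. It was at 106, 80.1 and 71.3 CPM in P16lo F480 cells and 221, 46.7 and 112 in P16hi, with a log2 fold change of 0.56 ± 0.56 (edgeR adjusted p = 0.999). P16hi held both the highest and the lowest library. In PDGFRa cells it was at 147, 70.5 and 142 CPM in P16lo and 183, 111 and 67.0 in P16hi. The group means there were 120 ± 42.8 and 120.5 ± 58.7 CPM (SD, n = 3), with a log2 fold change of 0.01 ± 0.47 (edgeR adjusted p = 0.998).

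Ferritin is a shell of heavy chains (Fth1, chr19:9980600-9985111), which oxidize iron for storage, and light chains (Ftl1, chr7:45457944-45459886), which help form the mineral core. Together they held 0.453% to 6.99% of all TPM in a library, and their ranks by TPM ran from 2 to 29 for Ftl1 and from 3 to 29 for Fth1. In F480 cells Fth1 was at 14920, 12492 and 3692 CPM in P16lo and 17381, 3946 and 6585 in P16hi, and Ftl1 at 17316, 13640 and 3367 in P16lo and 31626, 7071 and 11501 in P16hi. For both genes P16hi library 1 was the highest, P16lo library 3 the lowest, and the groups overlapped. The log2 fold changes were -0.16 ± 0.77 for Fth1 and 0.55 ± 0.82 for Ftl1 (edgeR adjusted p = 0.999 for each). In PDGFRa cells Fth1 was at 9096, 3771 and 2695 CPM in P16lo and 10702, 3604 and 2694 in P16hi, and Ftl1 at 16555, 6113 and 5617 in P16lo and 22885, 7423 and 4265 in P16hi. Both genes there had library 1 as the highest and library 3 as the lowest of each group. The log2 fold changes were 0.13 ± 0.68 (edgeR adjusted p = 0.966) and 0.29 ± 0.73 (edgeR adjusted p = 0.933). Across the 6 libraries of a population the log2(CPM + 1) of both genes had a Pearson r of 0.92 in F480 and 0.98 in PDGFRa cells, a description over libraries that share their composition.

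The balance of light to heavy chain RNA was steadier than either level. In F480 cells the ratio of Ftl1 TPM to Fth1 TPM was 1.12, 1.05 and 0.879 in P16lo and 1.75, 1.73 and 1.68 in P16hi. The groups did not overlap, with means of 1.02 ± 0.123 and 1.72 ± 0.0342 (SD, n = 3), and the ratio was also higher in P16hi within both column blocks, at 0.879 against a mean of 1.71 in the first and a mean of 1.08 against 1.75 in the second. In PDGFRa cells the ratio was 1.75, 1.56 and 2.01 in P16lo and 2.06, 1.98 and 1.53 in P16hi, and the groups overlapped. Its means were 1.78 ± 0.225 and 1.86 ± 0.290 (SD, n = 3), and the P16lo F480 libraries were the 3 lowest of all 12. This ratio was picked out after its values were seen and has no test. Of the 45 ratios between a pair of members, 6 (13.3%) were separated between the groups in F480 cells, where 7.13% of the ratios between any 2 genes tested were. In PDGFRa cells 3 (6.67%) were, beside 14.4%. The 45 ratios share genes, and nothing particular to the ferritin pair is read from these shares. The others separated in F480 cells were Cd163, Slc40a1 and Slc48a1 over Fth1, all higher in P16hi, and Slc40a1 over Blvrb and over Slc48a1, also higher. Ftl1 lay above Fth1 in 11 of 12 libraries, the exception being P16lo F480 library 3. Both genes have processed copies in the mouse genome, and Ftl1 counts were not whole numbers in several libraries, so reads shared with copies add an uncertainty that was not tested.

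**Figure D3:**
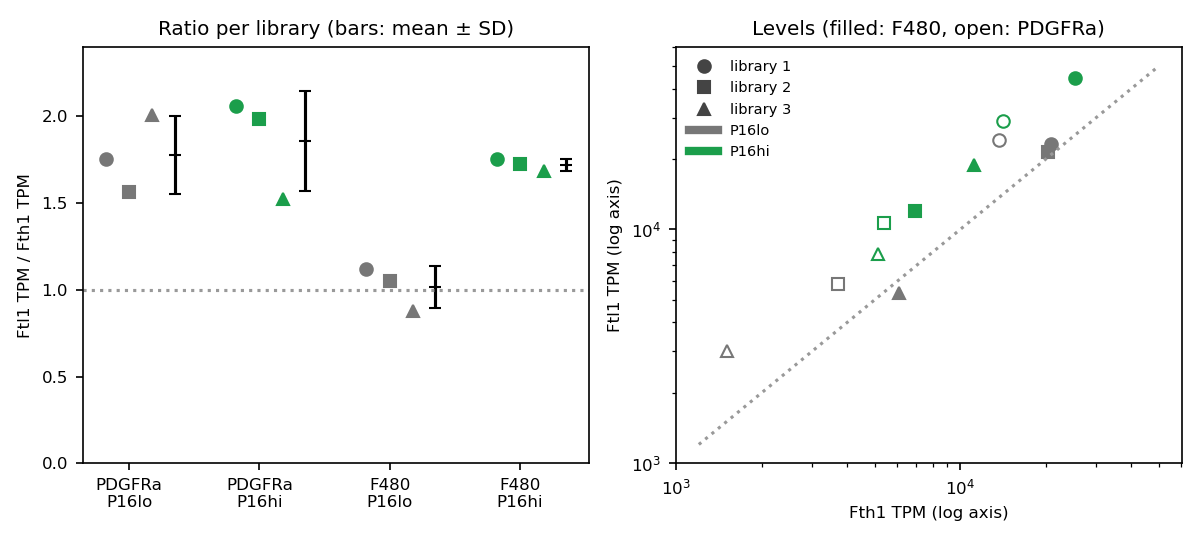
Left, ratio of Ftl1 TPM to Fth1 TPM in each library, with the group mean and SD beside it and the dotted line at a ratio of 1. Right, Ftl1 against Fth1 TPM on log axes, with the dotted line of equal levels. The P16lo F480 libraries lie at 0.879 to 1.12 and the P16hi F480 libraries at 1.68 to 1.75, while the PDGFRa groups overlap.

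Slc40a1 (chr1:45908070-45926532) encodes ferroportin, the iron exporter of mammalian cells, whose 5′ UTR element is printed above. In F480 cells it was at 4.84, 5.24 and 2.79 CPM in P16lo and 223, 4.91 and 39.9 in P16hi. P16hi libraries 1 and 3 stood far above the rest, while P16hi library 2 lay within the P16lo range. The log2 fold change was 4.38 ± 1.30 (n = 3 a group), the largest size among the members in either population, with an unadjusted edgeR p of 0.0135 and an adjusted p of 0.999. It was 2.37 ± 0.91 without P16hi library 1 (edgeR adjusted p = 0.986) and 4.95 ± 0.83 without P16hi library 2 (edgeR adjusted p = 0.679), and 2.04 and 5.21 within the blocks on the log2(CPM + 1) scale. Without P16hi library 3, which held endothelial and cardiomyocyte marker RNA, it was 4.74 ± 1.42. In PDGFRa cells Slc40a1 was at 17.9, 9.94 and 15.0 CPM in P16lo and 4.59, 26.3 and 6.71 in P16hi, a log2 fold change of -0.18 ± 0.73 (edgeR adjusted p = 0.953), with P16hi holding the highest and the 2 lowest libraries. The difference between the populations in the log2 fold change was 4.52 ± 1.5 (SE), with an adjusted p of 0.9999 from edgeR. It was 2.46 without P16hi F480 library 1 and 2.37 to 2.81 with limma on TPM. In that fit edgeR called 0 of 14073 genes (0%), 299 had an unadjusted p under 0.05 (2.12%), and DESeq2 called 8 (0.0568%), none of them a member. The other members differed by -0.42 to 1.71 on the log2 scale.

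The same P16hi F480 libraries stood out for the RNA of resident macrophages, a class that lives in the heart before injury and is known for high Cd163. The summed CPM of 10 such markers (among them Lyve1, Timd4 and Folr2) was 648, 587 and 80.8 in P16lo and 2743, 591 and 1121 in P16hi, with Vsig4 at 0 in P16lo library 3 and no other marker at 0. Of these markers, 10 of 10 had a log2 fold change above 0 and 0 of 10 were called by edgeR, with a median of 1.40. The sum of 8 monocyte markers in F480 cells was 2517, 2591 and 963 CPM in P16lo and 1115, 7211 and 532 in P16hi. It was thus highest in P16hi library 2, with 8 of 8 markers above 0 and 0 called. The part of either cell class in the values of Cd163 and Slc40a1 was not tested. In PDGFRa cells the resident macrophage sum was 1044, 254 and 461 CPM in P16lo libraries, while P16hi libraries had 1173, 1209 and 854 CPM, again with 10 of 10 above 0, 0 called, and Vsig4 at 0 in P16lo library 3. There 0 of 8 monocyte markers were above 0.

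Tfrc (chr16:32608896-32632794) encodes the transferrin receptor, which brings in iron from plasma and is abundant on dividing cells and red cell precursors. In F480 cells it was at 7.43, 10.4 and 23.5 CPM in P16lo and 17.2, 8.62 and 13.3 in P16hi, with a log2 fold change of -0.08 ± 0.55 (edgeR adjusted p = 0.999). P16lo library 3, which was the lowest for most other members, was the highest for Tfrc. In PDGFRa cells it was at 5.01, 22.0 and 3.07 CPM in P16lo and 0.31, 8.27 and 3.55 in P16hi, with only 1 count in P16hi library 1 and 326 in P16lo library 2. The log2 fold change of -1.29 ± 1.20 (edgeR adjusted p = 0.878) became 0.01 without P16lo library 2. That library also had the most RNA of 6 dividing cell markers, 503 CPM against 49.1 to 136 in the other PDGFRa libraries, of neutrophil markers (2123 against 56.6 to 189), and of T and NK cell markers (963 against 24.9 to 172). Aurkb, Top2a, Cd3d, Cd8a and Klrb1c were at 0 in P16hi library 1, and Ly6g or Retnlg was at 0 in P16lo library 1 and in each P16hi library. The part of these cells in the Tfrc value was not tested.

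Slc11a1 (chr1:74375014-74386057) encodes NRAMP1, which moves iron and manganese out of the phagosome of macrophages and neutrophils. It was at 538, 568 and 32.7 CPM in P16lo F480 cells and 754, 279 and 150 in P16hi, with a log2 fold change of 0.05 ± 1.05 (edgeR adjusted p = 0.999). In PDGFRa cells it was at 326, 90.0 and 23.0 CPM in P16lo and 148, 139 and 59.4 in P16hi, with a log2 fold change of -0.35 ± 0.86 (edgeR adjusted p = 0.932) that became 1.02 without P16lo library 1. The groups overlapped in both populations, and the spread within P16lo was 14.2-fold from the lowest to the highest library in PDGFRa cells.

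This gene followed the macrophage marker sum most closely of the members. The 6 PDGFRa libraries had the same order by Slc11a1 and by that sum, and the F480 libraries differed in order only by P16lo libraries 1 and 2. Per 1000 CPM of macrophage markers, Slc11a1 was at 11.5, 13.9 and 12.7 CPM in P16lo PDGFRa cells and 8.69, 10.8 and 10.1 in P16hi. On that scale the P16hi libraries all lay below the P16lo libraries, and the highest was 1.60-fold the lowest. It was 1 of 10 members so separated in PDGFRa cells, beside 1.74% of all genes tested, and 0 of 10 were in F480 cells, beside 6.73%. In F480 cells it was at 16.4, 18.98 and 12.2 in P16lo and 14.2, 10.8 and 9.81 in P16hi, and the groups overlapped. Hmox1 on the same scale was at 7.94, 33.4 and 29.7 in P16lo PDGFRa cells and 15.7, 7.04 and 8.65 in P16hi, and at 19.6, 22.0 and 12.1 in P16lo F480 cells and 33.9, 5.12 and 18.5 in P16hi. Cd163 per 1000 CPM of macrophage markers still ranged 31.6-fold over the PDGFRa and 45.4-fold over the F480 libraries, with the groups overlapping in each. Pearson r over 6 libraries between the log2 member level and the log2 macrophage sum was 0.99 in PDGFRa and 0.98 in F480 cells for Slc11a1, and 0.03 and 0.48 for Slc40a1. These are descriptions of libraries that also differ in other cell types.

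**Figure D4:**
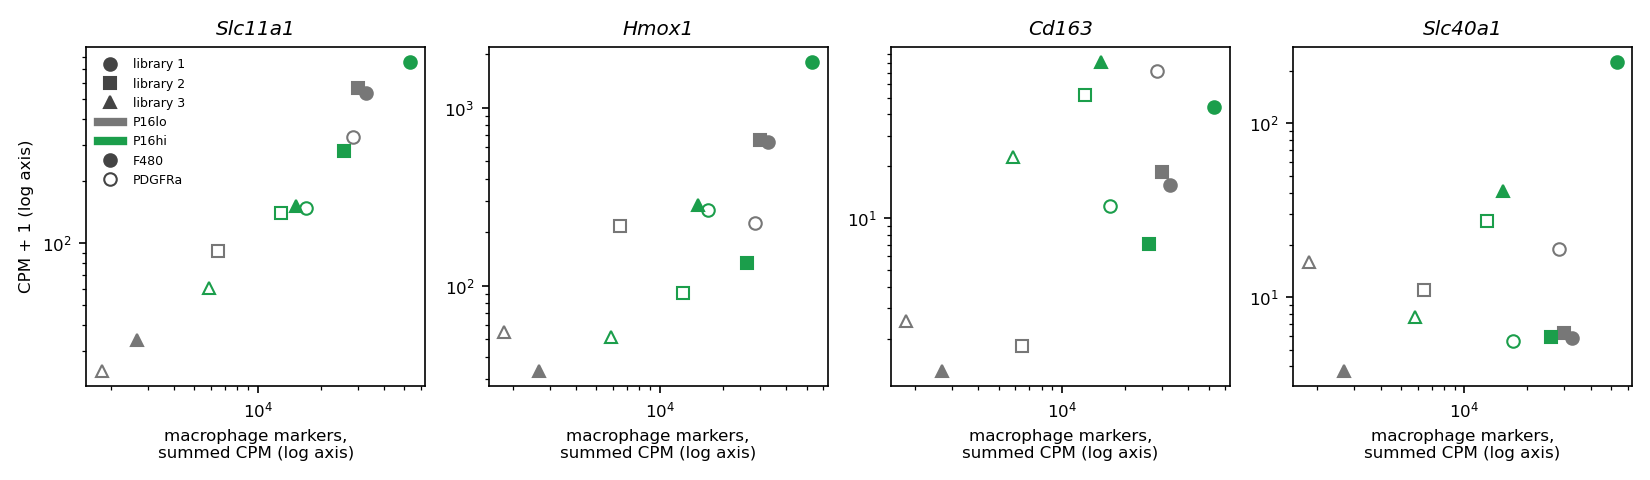
Level of Slc11a1, Hmox1, Cd163 and Slc40a1 (CPM plus 1, log axis) against the summed CPM of 12 macrophage markers (log axis) in each library, filled for F480 and open for PDGFRa, scaled within each population. Slc11a1 lies close to a line, with the same order of libraries in PDGFRa cells, and Cd163 and Slc40a1 are scattered.

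Nqo1 (chr8:107388225-107403205) encodes a quinone reductase that the oxidative stress factor Nrf2 controls, as it does Hmox1. It was the 1 member whose groups did not overlap. In PDGFRa cells it was at 2.12, 1.29 and 4.71 CPM in P16lo and 6.43, 8.78 and 10.96 in P16hi, from 41, 19 and 43 counts and 21, 52 and 142 counts. The highest P16lo library, with the most hemoglobin and fibroblast RNA, lay below the lowest P16hi library. The log2 fold change was 1.70 ± 0.81 (SE; adjusted p = 0.802 from edgeR), and it ran from 1.36 to 2.34 when each library was left out in turn. P16hi PDGFRa libraries also had more cardiomyocyte marker RNA, 2512 to 9028 CPM against 270 to 334 in P16lo with 10 of 10 markers separated, and more endothelial marker RNA, 4821 to 8609 against 514 to 1769, with no marker of either list at 0. Their part in the Nqo1 value was not tested. In F480 cells Nqo1 was near the floor, at 0.81, 1.18 and 0 CPM in P16lo and 0.90, 0.51 and 3.79 in P16hi. Only P16hi library 3, the one with endothelial marker RNA, stood clear of the others, and the log2 fold change was 1.37 ± 1.60 (edgeR adjusted p = 0.999), or 0.08 without that library.

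Other genes of heme and iron handling were read from 5 further lists, with 61 genes in the tables, for heme synthesis, heme scavenging and transport, iron uptake and release, iron sensing and storage, and the Nrf2 and Bach1 program. In F480 cells 0 of 56 genes tested were called by edgeR in either direction. An unadjusted edgeR p under 0.05 was held by 0 of them, beside 2.24% of all genes tested. Of the 56, 44 (78.6%) had a log2 fold change above 0, beside 6245 of all 12490 genes tested. Their median was 0.24, beside 0.00 over all genes. In PDGFRa cells 0 of 58 were called, and 4 had an unadjusted edgeR p under 0.05, beside 859 of all 13262 genes tested (6.48%). There 27 (46.6%) were above 0, beside 40.4% of all genes, with a median of -0.06 beside -0.17.

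In F480 cells the scavenging and transport list had 9 of 9 tested genes above 0 and the Nrf2 and Bach1 list 13 of 15. The other lists were less one-sided, at 5 of 8 for heme synthesis, 9 of 12 for iron uptake and release and 8 of 12 for iron sensing and storage. Abcg2, an exporter of porphyrins and other compounds, was at 5.26, 8.18 and 1.11 CPM in P16lo and 10.2, 2.81 and 65.8 in P16hi (log2 fold change 2.43 ± 1.26). Its highest value was in P16hi library 3, the one with endothelial marker RNA. The log2 fold change of Abcg2 was 0.42 without that library, and the part of those cells was not tested. Hebp1, a heme-binding protein, was at 20.5, 18.5 and 4.85 CPM in P16lo and 50.3, 13.9 and 42.9 in P16hi (1.29 ± 0.69), high in the same P16hi libraries as Cd163. Trf, transferrin, was at 718, 761 and 87.2 CPM in P16lo and 1737, 698 and 494 in P16hi (0.90 ± 0.87, or 0.40 without P16lo library 3 and 0.18 without P16hi library 1), with P16lo library 3 again the lowest. Aco1, iron regulatory protein 1, was at 23.9, 33.0 and 20.2 CPM in P16lo and 32.0, 37.1 and 42.6 in P16hi (0.53 ± 0.31), with groups that overlapped at P16lo library 2. Slc25a28, the mitochondrial iron carrier mitoferrin 2, was at 74.9, 68.7 and 38.0 CPM in P16lo and 60.3, 25.1 and 22.2 in P16hi (-0.75 ± 0.49, or -1.37 without P16hi library 1 and -0.50 without P16hi library 3), one of the 4 genes of its list below 0. Gsr, glutathione reductase, was at 277 CPM in P16hi library 2 and at 38.2 to 60.9 in the other libraries, and its log2 fold change of 1.36 ± 0.75 became 0.02 without that library. The edgeR adjusted p was 0.999 for each of these 6 genes.

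In PDGFRa cells the 4 genes with an unadjusted edgeR p under 0.05 were Slc25a37, Slc7a11, Lrp1 and Abcg2. Slc25a37, the mitochondrial iron carrier mitoferrin 1 of red cell precursors, was at 39.7, 150 and 461 CPM in P16lo and 29.7, 47.3 and 32.9 in P16hi. It was highest in P16lo libraries 2 and 3, the libraries with the most hemoglobin, and the log2 fold change was -2.56 ± 0.82 (edgeR adjusted p = 0.594), or -1.39 without P16lo library 3. The summed CPM of 9 erythroid markers ran in the same order in P16lo, at 5794, 200391 and 670650, beside 2367, 39866 and 19954 in P16hi, and their part in the Slc25a37 value was not tested. Slc7a11, the cystine importer, was at 3.67, 31.5 and 6.91 CPM in P16lo and 1.22, 2.03 and 2.47 in P16hi, groups that did not overlap (-2.85 ± 0.98, edgeR adjusted p = 0.628), with its peak in P16lo library 2 and a log2 fold change of -1.45 without it. Lrp1, the receptor for heme bound to hemopexin and for many other ligands, was at 471, 257 and 1012 CPM in P16lo and 291, 223 and 206 in P16hi (-1.27 ± 0.53, edgeR adjusted p = 0.749). Its highest value was in P16lo library 3, the library with the most fibroblast marker RNA, and the log2 fold change was -0.61 without it. Abcg2 was at 17.7, 3.99 and 17.9 CPM in P16lo and 23.3, 43.7 and 40.7 in P16hi, all P16hi libraries above all P16lo libraries (1.45 ± 0.61, edgeR adjusted p = 0.765). Endothelial and cardiomyocyte marker RNA was also higher in these P16hi libraries, as given above, and its part in the Abcg2 value was not tested. The groups of Slc7a11 and Abcg2 were thus separated, as were those of 14.8% of all genes tested in PDGFRa cells. Urod, an enzyme of heme synthesis, and Slc39a14, an importer of iron and zinc, had log2 fold changes of -0.79 ± 0.52 and -0.66 ± 0.59 (edgeR adjusted p = 0.876 and 0.878). Without P16hi library 1 these were -0.44 and -0.33.

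The genes whose levels were most like those of Hmox1 and Cd163 were found by Pearson r of log2(CPM + 1) over the 6 libraries of a population, among genes whose mean log2 CPM reached 3. In F480 cells, of 8891 genes, those closest to Hmox1 were Vat1, Pmp22, Ms4a14, Homer3 and Slc23a2 (r of 0.995 to 0.998), and Ftl1 among the members had an r of 0.99 with it. Those closest to Cd163 were Tmcc3, Nrp1, Arhgap18, Coa4 and Clasp2 (0.993 to 0.997). In PDGFRa cells, of 9897 genes, those closest to Hmox1 were Tars2, Arpc1b, Cotl1, Cyba and Ccdc115 (0.985 to 0.987), and those closest to Cd163 were Lilra5, Zfp84, Akr1b10, Stard8 and Dab2 (0.964 to 0.999). No gene was in more than 1 of these lists. With 6 libraries that differ in cell makeup such values describe the libraries only.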

How the data were processed

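RNA of 12 sorted samples was sequenced on DNA nanoballs after transposase tagging, per the labels' protocols. The submitters' processing notes name HISAT and the build GRCm38 (mm10). How reads were counted, and whether strand was used, is not given in the sources used here. Per the file headers, the authors deposited TPM, FPKM and estimated counts per gene and library. They also deposited a normalised count, which was read as a signal and not used. Counts that were not whole made up 13.0% to 19.2% of values and were rounded. The deposited TPM of P16hi F480 library 3 did not follow its FPKM: 93.0% of genes with FPKM above 5 were off by more than 5%, and 0% in the other libraries. TPM were therefore computed from the deposited FPKM for all libraries.

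Each population was a separate table of a pair of column blocks with their own gene lists, joined by gene identifier. A gene missing from a block was given 0 counts there (13053 of 17398 PDGFRa and 15698 of 17071 F480 genes were in both). Genes kept by filterByExpr (minimum count 10) were scaled by TMM and tested with edgeR 4.0.16 (robust quasi-likelihood F-test, R 4.3.3), adjusted by Benjamini-Hochberg over all genes tested at 0.05. All 12 libraries were fitted together for the difference between populations. Standard errors came from the F statistic. The script was tested on simulated counts. Alternatives used DESeq2 1.42.0 and limma 3.58.1 on log2(TPM + 1), other scalings and filters, a replicate block, the column block, and leaving out each library. The column block was fitted in F480 cells alone.

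Members and lists were chosen with earlier results of these data known, so no list was tested as a set. All members are named. From each pathway list up to 3 genes of smallest p in a population could be named, and those printed were chosen after their values were seen. For Hmox1 and Cd163 the 5 most alike genes are named, leaving out predicted genes. Depth (3.16 to 27.9 M, with M for 1000000 counts) limits the low genes, among them Tfrc, Nqo1, Cd163 and Slc40a1. Sequences came from RefSeq and GENCODE tables of GRCm38.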

Additional observations from a re-analysis of the deposited data

How the results depend on the processing

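Of 168 fits of the 10 members in PDGFRa cells under other settings, 0 passed the threshold and 32 changed sign; of 179 in F480 cells, 0 passed and 13 changed sign. The lowest adjusted p of a member was 0.185 for Nqo1 in PDGFRa cells (limma on TPM) and 0.139 for Slc40a1 in F480 cells (DESeq2). Members called stayed at 0 in every setting, also for the difference between populations. Over all genes, PDGFRa calls were 0 with edgeR, 39 with library totals, 23 with no filter, 304 with DESeq2, 177 and 88 with limma on deposited TPM (pseudocounts 1 and 0.1) and 176 on TPM from FPKM, the last an alternative chosen after seeing the data. They were 0 to 17 when a library was left out (17 without P16hi library 3). DESeq2 called 3 genes in F480 cells and 8 for the difference. Library totals moved the median log2 fold change of all PDGFRa genes by 0.41, and limma on TPM moved it by 0.62 to 0.73. 

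Signs that changed, as log2 fold changes, were these. In PDGFRa cells limma on TPM (deposited with 1, with 0.1, from FPKM) gave Hmox1 0.34, 0.35 and 0.34, Slc40a1 0.15, 0.15 and 0.15, and Slc11a1 0.92, 0.999 and 0.92; library totals gave Slc40a1 0.22; no filter gave Blvrb -0.0042. In F480 cells the column block as a covariate gave Fth1 0.43, and limma on TPM from FPKM gave Tfrc 0.056. The cause was not tested. Slc40a1 in F480 cells kept its sign throughout, at 2.52 to 2.96 with limma on TPM.

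Leaving out 1 library gave these ranges in PDGFRa cells: Blvrb -0.45 to 0.29, Cd163 -0.56 to 4.57, Fth1 -0.74 to 0.81, Ftl1 -0.71 to 0.97, Hmox1 -1.25 to 0.10, Slc11a1 -0.87 to 1.02, Slc40a1 -1.31 to 0.18, Slc48a1 -0.49 to 0.44 and Tfrc -2.27 to 0.0089. In F480 cells they were Blvrb -0.13 to 0.97, Fth1 -0.99 to 0.21, Ftl1 -0.31 to 0.97, Hmox1 -1.11 to 1.23, Slc11a1 -0.83 to 0.46 and Tfrc -0.38 to 0.55, and, with no change of sign, Cd163 1.18 to 2.50, Slc48a1 0.14 to 1.35, Slc40a1 2.37 to 4.95 and Nqo1 0.08 to 2.07. The F480 ratio of Ftl1 to Fth1 was higher in P16hi by 0.705 with all libraries, 0.643 on deposited TPM, 0.731 on counts and 0.636 to 0.756 with a library left out, alternatives chosen after seeing the data.

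The labels do not say whether replicate numbers pair the libraries. Same-numbered libraries had correlations of their deviations of 0.405, -0.258 and 0.104 in F480 and 0.135, -0.0303 and 0.297 in PDGFRa cells. Not every library correlated best with its own number. In F480 cells P16lo and P16hi libraries of the same column block had values of 0.104 to 0.446. Those of different blocks had values of -0.451 to -0.0718. The main fit did not include the block. With 3 libraries a group that differ in cell makeup, these values cannot decide whether libraries are paired. The replicate block called 0 genes in each population. It gave Slc11a1 0.30 and Blvrb -0.027 in PDGFRa cells and Tfrc 0.031 in F480 cells. In PDGFRa cells its standard errors were smaller for some members, such as Fth1 (0.35 beside 0.68 without it). They were larger for others, such as Cd163 (2.12 beside 1.48). A filter of 50 counts gave no value for Nqo1 in either population or for Tfrc in PDGFRa cells. With 3 libraries a group and libraries this uneven, a missed threshold does not show that groups are alike.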

Other observations

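The deposited TPM of P16hi F480 library 3 departed from the TPM computed from its own FPKM by a different factor for each member. Slc11a1 was deposited at 236 TPM against 90.3 from FPKM, and Hmox1 at 539 against 261. Cd163 was deposited at 5.44 against 24.0, and Nqo1 at 0.88 against 3.57. Fth1 and Ftl1 were closer, at 14119 against 11203 and 21164 against 18868. The Cd163 value lies above all P16lo F480 libraries (at most 4.89 TPM) either way, but by far less on the deposited value. The counts of that library follow its FPKM.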
